A study of Mus musculus with 6 samples.

Results

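Ldb3, Pdlim1, Pdlim3, Pdlim5, Pdlim7, Csrp3, Fhl1 and Fhl2 encode LIM and PDZ proteins of the cardiac Z-disc. Nebl encodes the nebulin relative nebulette and a shorter LIM-bearing form, and Actn2 the alpha-actinin that several of these proteins bind. The genes were chosen by name from the deposited expression table, and all 10 were found among its 24525 gene rows. The Z-disc is the border of the sarcomere, where alpha-actinin crosslinks the barbed ends of actin filaments. PDZ-LIM proteins bind alpha-actinin through the PDZ domain and bring kinases to it through LIM domains, while LIM-only proteins link the Z-disc and titin to signalling and to the nucleus. Several of these genes are known causes of inherited cardiomyopathy or myopathy in humans.

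RNA from mouse hearts was profiled in 6 libraries. The 3 double knockout libraries (DKO; replicates 7, 8 and 9) came from animals described as Mbnl1-/-; Mbnl2cond/cond; Myh6-Cre+/-, a genotype that names Mbnl1 null alleles and conditional Mbnl2 alleles targeted by a Cre under the Myh6 promoter, active in cardiomyocytes. The 3 wild-type libraries (WT; replicates 4, 5 and 6) carry no further genotype in the labels, and the hearts were from animals of 3 to 6 months. MBNL proteins steer the choice of exons in muscle and are trapped by the repeat RNA of myotonic dystrophy. The genotype tag of replicate 7 says WT, whereas its title and source name say DKO, and it was placed in DKO.

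Expression was deposited as TPM, a transcript abundance corrected for transcript length and library total. No counts come with it, and the depth is unknown. Each library had between 14084 and 14623 genes at 1 TPM or more. On log2(TPM + 1), replicate 7 had Pearson correlations across genes of 0.951 and 0.955 with DKO 8 and DKO 9. With WT 4, 5 and 6 they were 0.931, 0.923 and 0.939. Mbnl1 lay between 102 and 108 TPM in DKO and between 145 and 161 TPM in WT, and Mbnl2 between 227 and 245 TPM in DKO and between 149 and 189 TPM in WT. Mbnl1 was lower in DKO without being absent, and Mbnl2 was higher. Gene-level TPM of whole hearts shows neither which exons remain nor which cells made the RNA, so these values do not test the genotype. DKO 7 and DKO 8 carried Xist (152 and 174 TPM) and almost no Y-linked transcripts, whereas DKO 9 and the WT libraries carried Y-linked transcripts. A fit with a term for Xist therefore compares DKO 9 alone with WT. All 8 cardiomyocyte markers examined were present, with a summed level of 71136 to 72118 TPM in DKO and 73785 to 75764 TPM in WT (0 higher, 2 lower: Tnni3 and Ryr2). The sum of 9 fibroblast markers was 1368 to 1687 TPM in DKO and 1013 to 1060 TPM in WT (5 of 9 higher, 0 lower), and that of 7 macrophage markers was 515 to 724 TPM in DKO and 337 to 458 TPM in WT (3 higher, 1 lower). No fibroblast or macrophage marker was below 1 TPM in all libraries, and their part in the results below was not tested. The sum of 7 endothelial markers was 617 to 714 TPM in DKO and 684 to 803 TPM in WT (0 higher, 2 lower). Erythroid markers, 5 genes, summed to 1781 to 6763 TPM in DKO and 6042 to 38458 TPM in WT, with WT 5 highest. This sum hides a split within DKO. Hbb-bs had 1690, 1.149 and 0.892 TPM in DKO 7, 8 and 9 and 1436 to 14182.5 TPM in WT. Hbb-bt had 216, 0 and 2.52 TPM in DKO 7, 8 and 9 and 307 to 2245 TPM in WT. Hba-a1 remained at 3096, 1115 and 1407 TPM in DKO 7, 8 and 9. The source of the low Hbb-bs and Hbb-bt values in DKO 8 and DKO 9, not shared by DKO 7, was not tested. In whole-tissue RNA, fewer cells of a type and less RNA per cell cannot be told apart.

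Promoters are shown because serum response factor and its coactivator myocardin drive many Z-disc genes through a sequence named the CArG box, and because Pdlim3 had the largest difference of the 10 genes. RefSeq starts on GRCm38 were available for all 10 genes, 18 start sites in all, and the 250 bases before each were searched on both strands. A CArG box was present before 6 of the 18 starts, 2 of them the same box of Ldb3 seen from neighbouring starts, against 1.47% of 32851 windows of this length. Counted by gene, 4 of 10 held one (Fhl1, Fhl2, Ldb3 and Nebl), against 1.62% of 27025 genes. Genes with several starts had more sequence to search. Each distinct box is printed in capitals with up to 25 bases on either side:
Fhl1, chrX:56779556-56779615, plus strand: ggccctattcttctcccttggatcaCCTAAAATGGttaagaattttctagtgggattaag
Fhl2, chr1:43196823-43196882, minus strand: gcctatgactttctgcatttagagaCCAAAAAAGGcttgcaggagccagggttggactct
Fhl2, chr1:43163962-43164017, minus strand: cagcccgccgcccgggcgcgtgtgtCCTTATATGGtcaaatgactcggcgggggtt
Ldb3, chr14:34588682-34588741, minus strand: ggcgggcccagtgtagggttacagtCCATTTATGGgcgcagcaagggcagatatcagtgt
Nebl, chr2:17462984-17463043, minus strand: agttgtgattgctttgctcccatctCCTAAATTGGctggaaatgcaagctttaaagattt

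These matches are descriptions of letters and not of bound sites, and TPM per gene does not say which start was used. The Nebl box lies before the start farthest downstream of its 4 starts. The boxes of Ldb3 and of the downstream Fhl2 start begin 35 and 31 bases before transcription starts.

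Pdlim3 had no CArG box. Its window, chr8:45885237-45885486 on the plus strand, held a cyclic AMP response element (TGACGTCA, 48 bases before the start; in 1.77% of genes) and a pair of TEAD sites (CATTCC or its reverse complement; 14.4% of genes held at least 1), all in capitals:
Pdlim3: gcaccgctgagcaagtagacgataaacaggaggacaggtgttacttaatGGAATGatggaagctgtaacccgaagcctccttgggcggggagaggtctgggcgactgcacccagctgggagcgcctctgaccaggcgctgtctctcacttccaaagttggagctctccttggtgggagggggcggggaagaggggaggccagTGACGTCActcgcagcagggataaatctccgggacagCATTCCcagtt
No other of the 10 genes held this response element in the windows searched. A TEAD site was also found before 1 start of Nebl, so 2 of the 10 genes held one. Of the other motifs, the MEF2 site was found before 1 start of Fhl2 (3.42% of genes) and the E-box CACGTG in 1 gene, Actn2 (6.86% of genes).

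Of the 10 genes, 4 rose in DKO (Pdlim3, Nebl, Fhl2 and Pdlim5), 1 fell (Csrp3) and 5 did not pass the test. A call is a Benjamini-Hochberg (BH) adjusted p under 0.05 in limma, over the 14541 genes that reached 1 TPM in 3 or more libraries. All 10 genes passed this filter, with 1 TPM or more in every library. Over all genes tested, 10.7% were called, 6.51% as higher and 4.22% as lower, and among the 6414 with a mean of 20 TPM or more, 15.6% were called. The DKO and WT values did not overlap for 9 of the 10 genes (6 with DKO above, 3 with DKO below), against 33% of all genes tested and 39.8% of those at 20 TPM or more. The median difference of log2(TPM + 1) between DKO and WT was 0.27 for the 10 genes and 0.03 for all genes tested. The labels do not state that each library is its own animal, and p-values therefore measure the spread between libraries, which may be technical. Leaving out 1 library reduced the 5 calls to 3 (without WT 4 or WT 6) or 2 (without WT 5, DKO 7, DKO 8 or DKO 9), and Pdlim3 and Nebl were called in each of these 6 fits. The share of all genes called was 6.11%, 5.72% and 5.29% without WT 4, 5 and 6, and 5.7%, 4.41% and 6.17% without DKO 7, 8 and 9. The split of the called genes was 4 higher and 1 lower as reported, 3 and 2 with median-ratio scaling (12.1% of all genes called), 4 and 0 with quantile scaling (11.5%), and 5 and 2 without haemoglobin and short RNA rows (13.9%). It was 5 genes with a pseudocount of 0.1 (10.2% of all genes called), 6 with a 5 TPM filter (13.1%), 3 with no filter (6.52%) and 2 without the variance trend (7.44%). A term for Xist-bearing libraries left 0 of the 10 called (limma with BH; 6 had an unadjusted p under 0.05), as did counting replicate 7 as WT (limma with BH; 1 had an unadjusted p under 0.05). Of all genes, 0.633% and 0.00688% were called in these fits, and 0.208% with Y-linked libraries alone, where again 0 of the 10 were called (6 at an unadjusted p under 0.05).

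**Figure D1:**
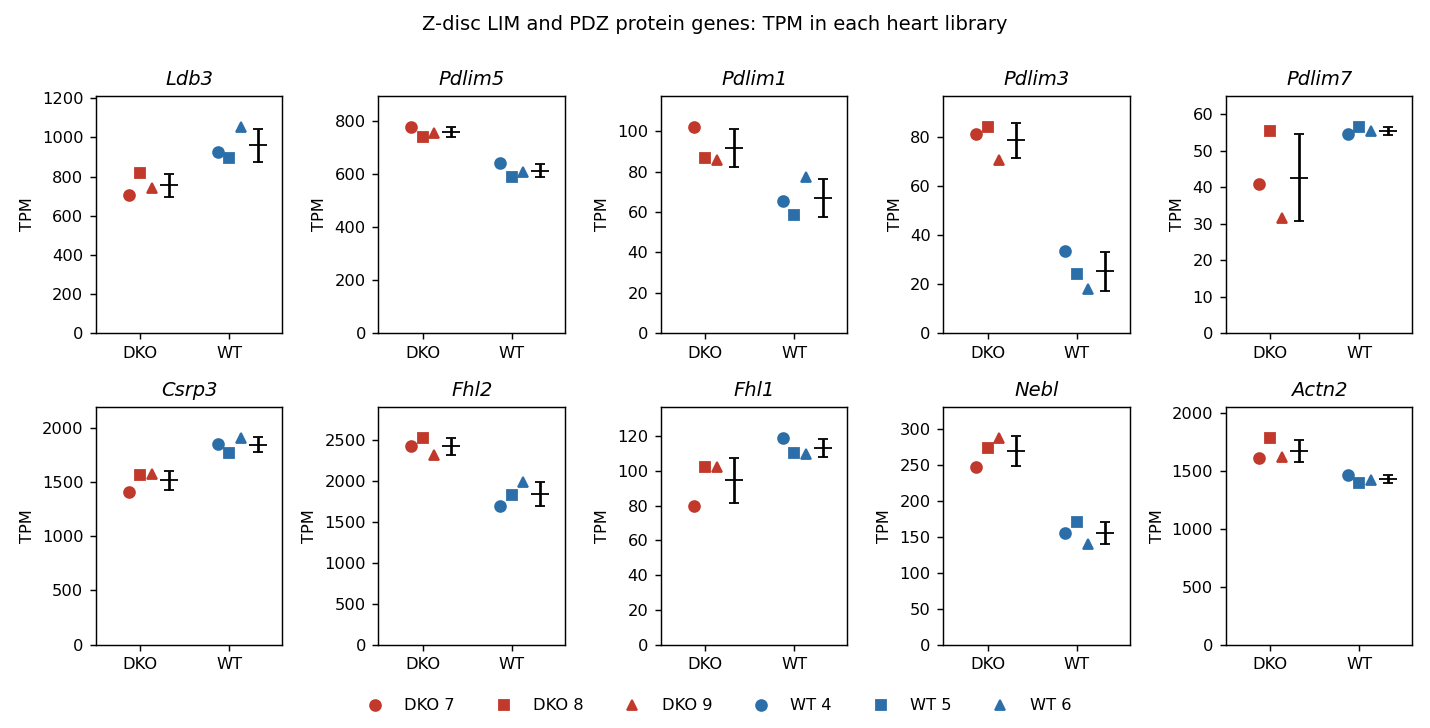
TPM of each gene (vertical axes from 0, scaled per gene) in the 3 DKO and 3 WT libraries, with mean and SD in black. The groups are apart for 9 genes, and for Pdlim7 DKO 8 lies among the WT libraries.

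Pdlim3 (ALP; chromosome 8, 45885487 to 45919635), a muscle PDZ-LIM protein that binds alpha-actinin-2 and whose loss in mice leads to right ventricular cardiomyopathy, had 81.4, 84.4 and 70.7 TPM in DKO 7, 8 and 9 and 33.8, 24.2 and 17.9 TPM in WT 4, 5 and 6. The lowest DKO library was thus above the highest WT library. The means were 78.8 ± 7.20 TPM in DKO and 25.3 ± 7.98 TPM in WT (SD, n = 3 each), a ratio of 3.12 and a log2 difference of 1.64 (standard error 0.21; adjusted p = 0.00766, limma with BH). The difference was 1.87 on the log2 scale without WT 4 and 1.43 without WT 6, the highest and lowest WT libraries. Pdlim3 was the least abundant of the 10 genes in WT and passed Pdlim7 in DKO.

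Pdlim5 (ENH; chromosome 3, 142239585 to 142395719), which tethers protein kinase C at the Z-disc, had 778, 739 and 753 TPM in DKO 7, 8 and 9 and 641, 589.9 and 607 TPM in WT 4, 5 and 6. All DKO values lay above all WT values, and the spread within either group was small, with a coefficient of variation of 2.59% in DKO and 4.25% in WT. Pdlim5 rose by a log2 difference of 0.30 (standard error 0.06; adjusted p = 0.0236, limma with BH), to 1.24 of the WT mean. The call was lost in each fit without 1 library other than the one without WT 4, with adjusted p up to 0.0749, and with median-ratio scaling (adjusted p = 0.0503, limma with BH).

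Ldb3 (ZASP or Cypher; chromosome 14, 34526699 to 34590314), the striated muscle PDZ-LIM protein whose exon choice is known to be altered in myotonic dystrophy, had 705, 818 and 741 TPM in DKO 7, 8 and 9 and 928, 895 and 1055 TPM in WT 4, 5 and 6. Every DKO library was below every WT library. The means were 755 ± 57.7 TPM in DKO and 959 ± 84.6 TPM in WT, a log2 difference of -0.34 (standard error 0.09) that missed the threshold (adjusted p = 0.0542, limma with BH). It passed, as lower, with a 5 TPM filter (adjusted p = 0.0486, limma with BH), with median-ratio scaling (0.0264) and when haemoglobin and short RNA rows were left out (0.0214). The gene-level sum covers 8 annotated transcripts in GENCODE M21 and does not show which were made.

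Pdlim1 (CLP36; chromosome 19, 40222239 to 40271616), an alpha-actinin-binding PDZ-LIM protein also found in non-muscle cells, had 102, 86.6 and 85.7 TPM in DKO 7, 8 and 9 and 65.5, 58.5 and 77.2 TPM in WT 4, 5 and 6. The groups did not overlap, with DKO above. The log2 difference of 0.45 (standard error 0.12) missed the threshold (adjusted p = 0.0633, limma with BH) and passed when haemoglobin and short RNA rows were left out (0.0399).

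Pdlim7 (Enigma; chromosome 13, 55497487 to 55513473), a PDZ-LIM scaffold of actin and kinases, was the only gene of the 10 whose groups overlapped. It had 41.0, 55.5 and 31.7 TPM in DKO 7, 8 and 9 and 54.5, 56.7 and 55.4 TPM in WT 4, 5 and 6. DKO 8 matched the WT libraries while DKO 7 and DKO 9 were lower, and the coefficient of variation was 28.1% in DKO and 1.95% in WT. The log2 difference was -0.41 (standard error 0.19, adjusted p = 0.217, limma with BH). It was -0.61 without DKO 8 and -0.22 without DKO 9. With a term for Xist-bearing libraries it was -0.79, which is the difference of DKO 9 alone from WT.

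**Figure D2:**
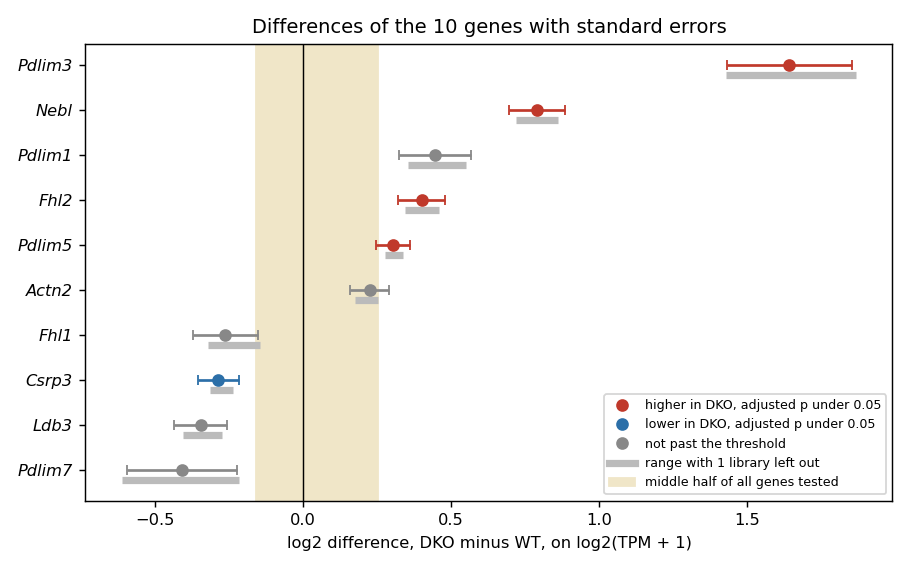
Log2 differences (DKO minus WT, log2(TPM + 1)) with standard errors from limma; grey bars give the range when 1 library is left out and the shaded band runs between the quartiles of all genes tested (-0.16 and 0.25). Pdlim3 at 1.64 and Nebl at 0.79 lie farthest out, and 9 of the 10 genes lie outside the band.

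Among the PDZ-LIM genes the summed level was similar in both groups while its makeup differed. Pdlim1, Pdlim2, Pdlim3, Pdlim4, Pdlim5, Pdlim7 and Ldb3 summed to 1756 ± 53.1 TPM in DKO and 1748 ± 95.9 TPM in WT (exact two-sided permutation p = 1). Ldb3 held 40.6%, 45.02% and 43.2% of this sum in DKO 7, 8 and 9 and 53.0%, 54.2% and 57.3% in WT 4, 5 and 6. Pdlim5 held 43.1% ± 2.15 in DKO and 35.1% ± 1.92 in WT. Ldb3 therefore exceeded Pdlim5 in each WT library, while in DKO the ranges of the 2 genes overlapped. Pdlim3 held 4.48% ± 0.318 of the sum in DKO and 1.46% ± 0.478 in WT, and Pdlim1 5.22% ± 0.596 in DKO and 3.83% ± 0.329 in WT. For each of these 4 shares the groups did not overlap and the exact two-sided permutation p was 0.1, the smallest that 3 against 3 libraries allow (0.15 after BH adjustment over 27 family tests).

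**Figure D3:**
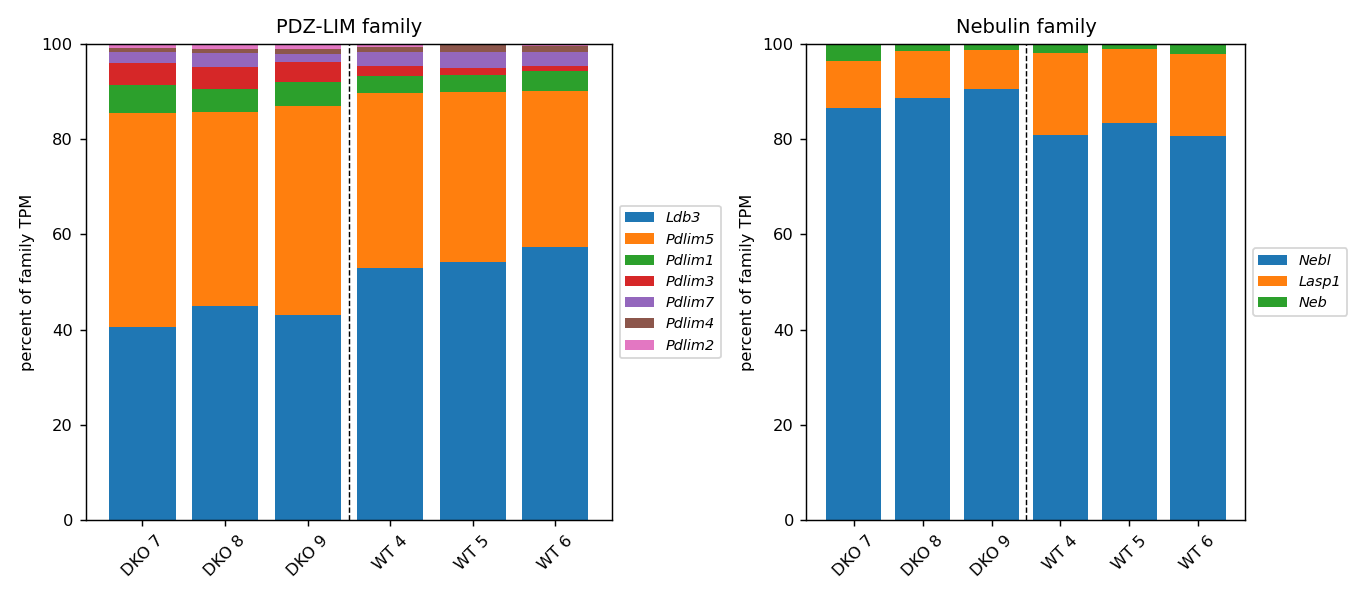
Share of the summed TPM of the PDZ-LIM family (left) and of Nebl, Lasp1 and Neb (right; Nrap not included) held by each gene, as stacked bars for DKO 7, 8 and 9 and then WT 4, 5 and 6. The Ldb3 segment is between 40.6% and 45.02% in DKO and between 53.0% and 57.3% in WT.

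Csrp3 (muscle LIM protein; chromosome 7, 48830398 to 48848051), a LIM-only protein that binds telethonin and alpha-actinin and whose loss in mice causes dilated cardiomyopathy, was the only gene of the 10 called as lower. It had 1412, 1563 and 1573 TPM in DKO 7, 8 and 9 and 1854, 1773 and 1910.3 TPM in WT 4, 5 and 6. All DKO values were below all WT values, with DKO 7 lowest. Csrp3 fell by 0.28 on the log2 scale (standard error 0.07; adjusted p = 0.0461, limma with BH), to 82.1% of the WT mean. The call was lost in all 6 fits without 1 library (adjusted p between 0.0733 and 0.127, limma with BH), and with quantile scaling the log2 difference was -0.14 (0.38).

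Csrp3 made up most of the CSRP family sum, with 93.2% ± 0.0379 in DKO and 95.9% ± 0.412 in WT. The relative Csrp2, better known from smooth muscle, had 67.5, 61.8 and 68.4 TPM in DKO 7, 8 and 9 and 38.7, 23.7 and 17.5 TPM in WT 4, 5 and 6. Csrp2 rose by a log2 difference of 1.35 (standard error 0.26; adjusted p = 0.0229, limma with BH), and its call held in 2 of the 6 fits without 1 library. The sum of 8 smooth muscle and pericyte markers was 742 to 929 TPM in DKO and 762 to 817 TPM in WT (1 higher, 1 lower, none below 1 TPM in all libraries). The markers did not move together. Acta2 was the one called higher, at 228 TPM in DKO and 66.5 TPM in WT. Myh11, Tagln, Smtn and Rgs5 were each below every WT library in DKO, and Cnn1, Pdgfrb and Cspg4 overlapped. The part of these markers in the Csrp2 result was not tested.

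Fhl2 (chromosome 1, 43123071 to 43198343), the heart-enriched four-and-a-half LIM protein that binds titin and acts as a transcriptional cofactor, had 2428, 2524 and 2316 TPM in DKO 7, 8 and 9 and 1696, 1829 and 1987 TPM in WT 4, 5 and 6. The lowest DKO library exceeded the highest WT library. Fhl2 rose by a log2 difference of 0.40 (standard error 0.08; adjusted p = 0.0246, limma with BH), a ratio of 1.32, and its mean gain of 586 TPM was the largest of the 10 genes in absolute level. Of the 6 fits without 1 library, the call held only without WT 6 (adjusted p = 0.0345, limma with BH), and it was lost with no filter (0.0502) or without trend (0.0628). CArG boxes precede both annotated Fhl2 starts, as printed above.

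Fhl1 (chromosome X, 56731209 to 56793346), which links titin to mitogen-activated kinases and causes X-linked myopathies in humans, had lower values in DKO and did not pass the test. It had 79.8, 102 and 102 TPM in DKO 7, 8 and 9 and 119, 110.4 and 109.8 TPM in WT 4, 5 and 6. The groups did not overlap, and DKO 7 was set apart from the others. The log2 difference was -0.26 (standard error 0.11; adjusted p = 0.184, limma with BH). DKO 9 alone against WT, the libraries with Y-linked transcripts, gave -0.14. The part of the sex-linked difference between libraries in this X-linked gene's value was not tested. Within the FHL family, Fhl1 held 3.74% ± 0.536 of the summed TPM in DKO and 5.79% ± 0.670 in WT (exact two-sided permutation p = 0.1, the smallest possible).

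Nebl (nebulette; chromosome 2, 17342673 to 17734949), the cardiac nebulin relative that ties actin to the Z-disc, had 247, 273 and 288 TPM in DKO 7, 8 and 9 and 155, 170.2 and 140.2 TPM in WT 4, 5 and 6. The lowest DKO library was above the highest WT library by more than either group's range. Nebl rose by a log2 difference of 0.79 (standard error 0.09; adjusted p = 0.00622, limma with BH), a ratio of 1.73, and was called in all 6 fits without 1 library (0.0128 to 0.0275). With Neb and Lasp1, its nebulin-repeat relatives, it made up 88.6% ± 2.02 of the family sum in DKO and 81.7% ± 1.47 in WT. With Nrap, a further LIM and nebulin-repeat protein, counted in as well, the Nebl share was 40.1% ± 0.735 in DKO and 24.6% ± 4.00 in WT (exact two-sided permutation p = 0.1, the smallest possible). Nrap itself averaged 369 ± 47.1 TPM in DKO and 445 ± 55.4 TPM in WT, with overlapping groups (adjusted p = 0.225, limma with BH), and it was added after its values were seen. Lasp1, a cytoskeletal LIM and nebulin-repeat protein, averaged 28.2 ± 2.66 TPM in DKO and 31.5 ± 1.54 TPM in WT, with overlapping groups (adjusted p = 0.355, limma with BH). The 13 annotated Nebl transcripts include a shorter LIM-bearing form, and gene-level TPM does not separate it from full-length nebulette.

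Actn2 (sarcomeric alpha-actinin; chromosome 13, 12269426 to 12340732), the actin crosslinker that the PDZ-LIM proteins and Csrp3 bind, had 1609, 1788 and 1626 TPM in DKO 7, 8 and 9 and 1469.9, 1399 and 1422 TPM in WT 4, 5 and 6. DKO lay above WT without overlap, with DKO 8 highest. The log2 difference of 0.23 (standard error 0.07) missed the threshold (adjusted p = 0.0754, limma with BH). The non-muscle form Actn4 had 94.1, 132 and 94.3 TPM in DKO 7, 8 and 9 and 65.0, 65.3 and 61.0 TPM in WT 4, 5 and 6. Actn4 rose by 0.72 on the log2 scale (standard error 0.14; adjusted p = 0.0236, limma with BH; called in 3 of 6 fits without 1 library), so that the Actn2 share of the alpha-actinin sum was 92.5% ± 0.833 in DKO and 93.9% ± 0.199 in WT.

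In order of level, DKO hearts ran Fhl2, Actn2, Csrp3, Pdlim5, Ldb3, Nebl, Fhl1, Pdlim1, Pdlim3 and Pdlim7, and WT hearts ran Csrp3, Fhl2, Actn2, Ldb3, Pdlim5, Nebl, Fhl1, Pdlim1, Pdlim7 and Pdlim3. The neighbours whose ranges overlapped were Pdlim5 with Ldb3 and Fhl1 with Pdlim1 in DKO, and Csrp3 with Fhl2 in WT. The 10 genes together made up 0.770% of all TPM in DKO (7701 ± 292) and 0.710% in WT (7101 ± 249).

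Partners of these proteins at the Z-disc also changed in both directions. Of 30 tested Z-disc and anchoring genes, 6 rose and 4 fell, with a median log2 difference of 0.08 against 0.03 for all genes tested. The share called was 33.3%, against 10.7% of all genes tested and 15.6% of those at 20 TPM or more. Myoz2 (calsarcin-1), which links calcineurin to alpha-actinin, averaged 1916 ± 101 TPM in DKO and 1231 ± 81.6 TPM in WT (log2 difference 0.64; adjusted p = 0.00588, limma with BH). Sorbs2, an adaptor of the Z-disc, averaged 552 ± 82.7 TPM in DKO and 315 ± 3.68 TPM in WT (0.80; adjusted p = 0.00857, limma with BH). Smpx, a small muscle protein, averaged 601 ± 40.9 TPM in DKO and 374 ± 36.0 TPM in WT, and the actin-binding Z-disc protein Nexn averaged 476 ± 24.1 TPM in DKO and 347 ± 8.67 TPM in WT. Those 4 genes rose and were called in every fit without 1 library, while the list's 10 calls became 6 without WT 6 or DKO 8.

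Cmya5 (myospryn), a costameric protein that binds alpha-actinin, fell to 244 ± 28.0 TPM in DKO, against 396 ± 5.40 TPM in WT (log2 difference -0.70; adjusted p = 0.00673, limma with BH). Telethonin Tcap, the titin cap that binds Csrp3, averaged 1134 ± 149 TPM in DKO and 2126 ± 329 TPM in WT (-0.90; adjusted p = 0.013, limma with BH) and was called in all 6 fits without 1 library. Myotilin Myot averaged 19.8 ± 5.05 TPM in DKO and 50.2 ± 11.4 TPM in WT (-1.31; adjusted p = 0.0184, limma with BH; called in 4 of 6 fits without 1 library). Ttn, Xirp1 and Bag3 complete the list of 10, with log2 differences of 0.28, 0.51 and -0.37, and Ttn was called in 0, Xirp1 in 3 and Bag3 in 1 of the 6 fits without 1 library (limma with BH). Tcap, Myot, Ttn, Xirp1 and Bag3, and further on Srf and Lasp1, were named after their values were seen.

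**Figure D4:**
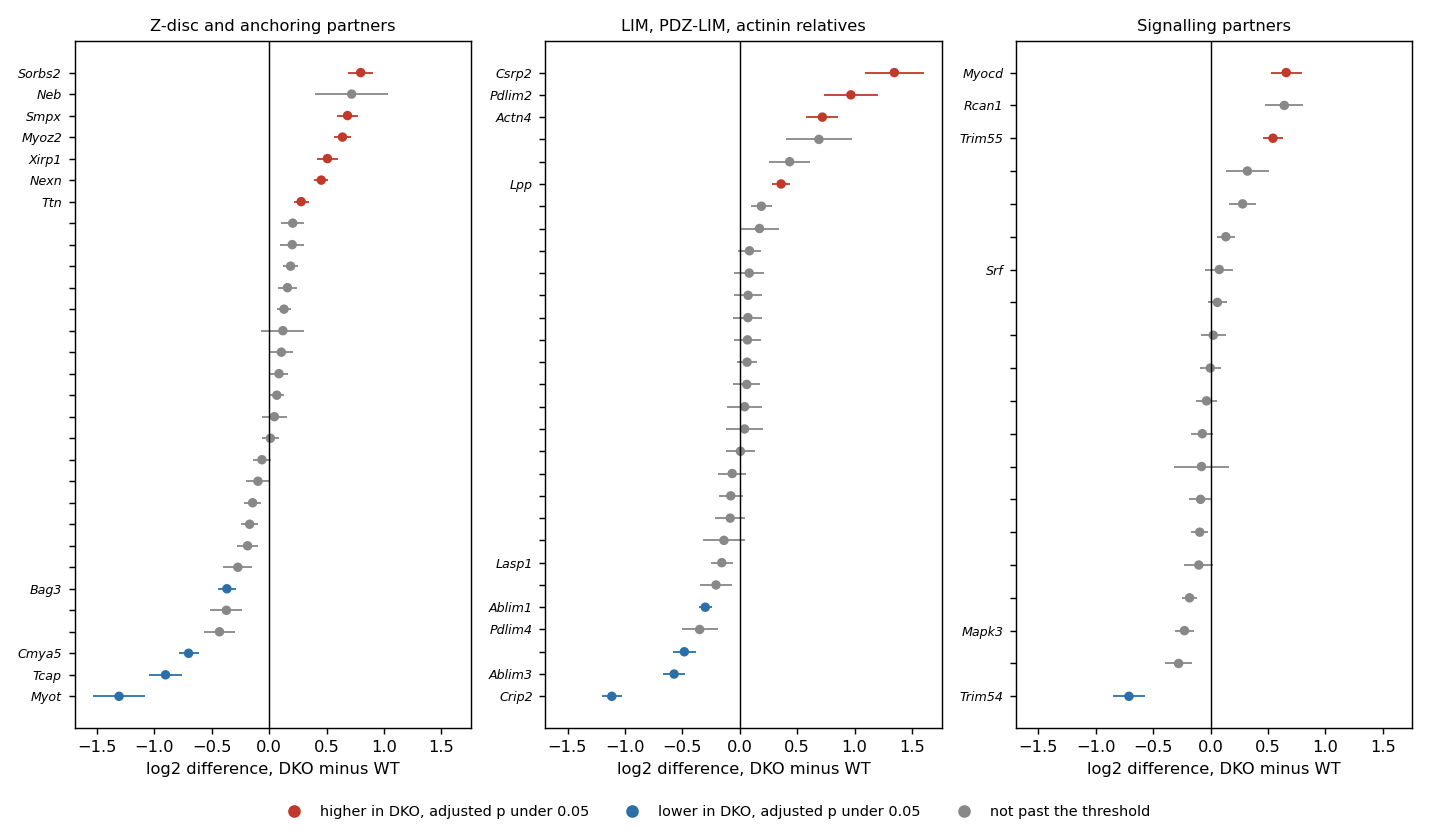
Log2 differences (DKO minus WT) with standard errors for tested genes of the 3 lists: Z-disc and anchoring partners (30), LIM, PDZ-LIM and alpha-actinin relatives (29) and signalling partners (21, of which 1 not past the threshold is not drawn). Genes named in the text are labelled. Red and blue points passed the test as higher and lower, 6 and 4, 4 and 4, and 2 and 1 in the order of the panels.

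Of 29 tested relatives with LIM or PDZ-LIM domains or of the alpha-actinin family, 4 rose and 4 fell, with a median log2 difference of 0.06 and 27.6% called, against the same 10.7% and 15.6%. Beside Csrp2 and Actn4, the list held the largest fall among these 3 lists outside Myot, that of Crip2, a LIM-only protein of heart and vessels. Crip2 had 466, 581 and 521 TPM in DKO 7, 8 and 9 and 1114, 1136 and 1134 TPM in WT 4, 5 and 6. Crip2 was close to uniform in WT and well below that level in DKO, with a log2 difference of -1.11 (standard error 0.09; adjusted p = 0.00193, limma with BH) that was called in all 6 fits without 1 library. The actin-binding LIM proteins Ablim3 and Ablim1 fell by 0.57 and 0.30 on the log2 scale (adjusted p = 0.0169 and 0.0249, limma with BH), with calls in 2 and 0 of those 6 fits. The list's 8 calls became 2 without WT 4, WT 6, DKO 7 or DKO 9 and 3 without WT 5 or DKO 8.

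Among 21 tested signalling partners, 2 rose and 1 fell, with a median log2 difference of -0.03. The share called, 14.3%, was near that of all genes tested (10.7%, or 15.6% at 20 TPM or more), so the count is not a result about these partners. The titin-associated ligases Trim55 (MuRF2) and Trim54 (MuRF3) went in opposite directions. Trim55 averaged 174 ± 6.26 TPM in DKO and 119 ± 12.1 TPM in WT (log2 difference 0.54; adjusted p = 0.0141, limma with BH), and Trim54 averaged 125 ± 8.24 TPM in DKO and 207 ± 38.6 TPM in WT (-0.71; adjusted p = 0.0261, limma with BH; called in 1 of 6 fits without 1 library). Myocd, the coactivator at CArG boxes, had 82.5, 104 and 97.0 TPM in DKO 7, 8 and 9 and 60.3, 68.3 and 50.4 TPM in WT 4, 5 and 6, and rose by a log2 difference of 0.66 (adjusted p = 0.0278, limma with BH; called in 2 of 6 such fits). Srf itself overlapped between the groups, at 52.8 ± 7.71 TPM in DKO and 49.9 ± 4.62 TPM in WT (adjusted p = 0.744, limma with BH). Of the 4 genes with a printed CArG box, Fhl2 and Nebl rose, while Ldb3 and Fhl1 did not pass and had negative differences. Rcan1, a calcineurin regulator, did not pass (log2 difference 0.64; adjusted p = 0.0553, limma with BH). The list's 3 calls became 1 without WT 4, WT 6, DKO 8 or DKO 9.

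Among these 80 tested partner genes, the profiles most like those of the called genes were found by the root mean square difference of log2(TPM + 1), each set to its WT mean, over the 6 libraries. Pdlim3 was nearest to Csrp2 (0.25) and then Pdlim2 (0.60), and Nebl to Myocd and Sorbs2 (0.12 each). Fhl2 was nearest to the focal adhesion protein Lpp (0.08) and Nexn (0.09), and Pdlim5 to Ttn (0.07) and Lpp (0.08). Csrp3 was nearest to Ablim1 (0.04) and the kinase Mapk3 (0.06). Small values are easily reached by genes with small differences, so the measure describes likeness in these libraries only.

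**Figure D5:**
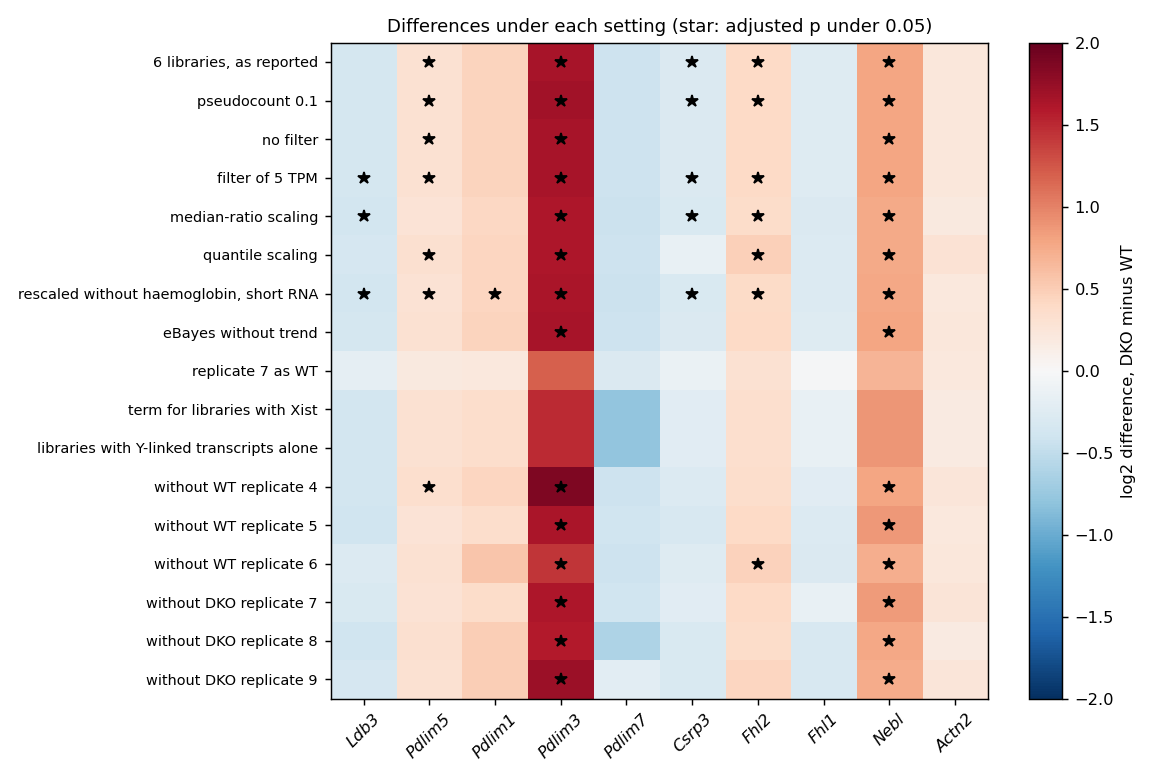
Log2 differences (DKO minus WT; colour) of the 10 genes under the reported fit and 16 other settings, with stars where the BH adjusted p was under 0.05. No gene changes sign in any row, but changing the filter or dropping the trend leaves the differences themselves untouched. Pdlim3 and Nebl keep their stars in all but 3 settings. These reassign replicate 7, add a term for Xist or use libraries with Y-linked transcripts alone.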

How the data were processed

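Per the labels, total RNA from mouse heart was sequenced as strand-specific paired-end libraries (2 reads of 75 bases). The authors deposited TPM per gene for each library. The submitters' processing notes name kallisto 0.44.0, bcl2fastq and mm10; which annotation was used, and how transcripts were joined into genes, is not given in the sources used here. TPM values share a fixed total, so abundant RNAs can shift the others. Groups follow titles and source names.

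Log2(TPM + 1) was fitted in R 4.3.3 by limma 3.58.1 (eBayes, trend on) for the 14541 genes reaching 1 TPM in 3 or more libraries, without covariates, and p was adjusted over all of them by Benjamini-Hochberg with a threshold of 0.05. This scale understates changes of low genes. Shares within paralog families were compared by exact two-sided permutation tests. The fit was tested on simulated data. Members, lists and alternatives were chosen with earlier results of these data known, and the 20 TPM level used for a second background after seeing the values. Beyond the members, the text names each list's 5 genes of lowest p and the 2 most similar profiles per called member; others are marked as chosen after their values were seen. A result that this rule gave is not reported here. Coordinates are from RefSeq on GRCm38.p6, transcript numbers from GENCODE M21 and promoters from RefSeq. Figures were drawn with matplotlib 3.10.9.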

Additional observations from a re-analysis of the deposited data

How the results depend on the processing

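No paired analysis was possible because the replicate numbers 4 to 6 and 7 to 9 are not shared between groups. All 160 alternative values of the 10 log2 differences kept their sign. Changing the filter or dropping the trend cannot alter these differences, so their signs were fixed in advance under those settings. The Xist and Y-linked settings gave the same differences as each other. Only the 5 called genes could lose a call, which happened in 38 values, and the other genes gained a call in 4. The 5 called genes (4 higher, 1 lower) became 3 with no filter, 2 without trend, 5 with median-ratio scaling (3 higher, 2 lower), 4 with quantile scaling (4 higher, 0 lower) and 2 to 3 with 1 library left out. With replicate 7 as WT, a term for Xist, and libraries with Y-linked transcripts alone, limma called 0, 0 and 0 of the 10 (1, 6 and 6 at an unadjusted p under 0.05) and 1, 92 and 29 of all genes, against 1560; leaving out 1 library gave 628 to 876. These 3 settings left 0, 0 and 0 of the Z-disc partners (10 as reported; 7, 12 and 13 unadjusted; 6 to 8 with 1 library left out), 0, 1 and 1 of the LIM relatives (8 as reported; 1 unadjusted in the setting at 0; 4 without trend; 2 to 3 with 1 library left out) and 0, 0 and 0 of the signalling partners (3 as reported; 1, 3 and 3 unadjusted; 1 without trend; 1 to 3 with 1 library left out). The fit on libraries with Y-linked transcripts has 1 DKO library, assumed to vary like the WT libraries. With the Xist term the difference between DKO and WT likewise rests on DKO 9 alone. The cause of these losses was not tested. Counting Nrap as a nebulin relative, chosen after seeing the data, kept the direction of the Nebl share. Depth is unknown, so its limits cannot be given.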

Other observations

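The WT libraries were not alike in Pdlim3 and in Csrp2, the gene with the profile nearest to it. Pdlim3 had 33.8, 24.2 and 17.9 TPM and Csrp2 had 38.7, 23.7 and 17.5 TPM in WT 4, 5 and 6. The coefficients of variation were 31.6% and 40.8%. Csrp2 was picked for its likeness to Pdlim3 over these same libraries. The shared order of the WT libraries is therefore partly built in by that choice and is no separate result. WT 4 also stood apart in 5 atrial markers, whose sum was 2457 to 4168 TPM in DKO and, in WT 4, 5 and 6, 6644, 380.2 and 1682 TPM. Nppa made up most of the DKO sum, with 2188, 3855 and 3789 TPM in DKO 7, 8 and 9. Myl7, Sln and Myl4 were lower in each DKO library than in WT 4 or WT 6, whereas Bmp10 was 0 TPM in WT 6. In WT 5, Myl7 and Myl4 (39.4 and 67.8 TPM) were below each DKO library, and Sln (28.4 TPM) lay within the DKO range. None of the 5 atrial markers was called. The part of atrial tissue in the spread of Pdlim3 and Csrp2 was not tested. In DKO, Pdlim3 and Csrp2 varied less, with coefficients of variation of 9.13% and 5.40%.

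DKO 8 held the highest level of the 3 DKO libraries for Pdlim7 and, among the other members, for Ldb3, Pdlim3, Fhl2 and Actn2. It also had the highest summed smooth muscle and pericyte markers (929 TPM, against 813 TPM in DKO 7 and 742 TPM in DKO 9). The same held for fibroblast markers (1687 TPM, against 1368 and 1563 TPM) and endothelial markers (714 TPM, against 617 and 647 TPM). Sums of the other cell types examined were not highest in DKO 8. Fibroblast and endothelial sums were higher in DKO 9 than in DKO 7, whereas Pdlim7 was lower in DKO 9. The part of the marker sums in the Pdlim7 value of DKO 8 was not tested.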
